A study of Mus musculus with 2 samples.

Results

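The genes described here are the axon guidance ligands and receptors of the ephrin, semaphorin, Slit and netrin systems, taken by gene symbol: the Eph receptors and ephrins, the semaphorins with the plexins and neuropilins, the Slits with the Robos, and the netrins with the Unc5 receptors. They number 68 of the 21829 genes with a value, 35 ligands and 33 receptors. Both RNA libraries came from C2C12, an immortalised mouse myoblast line grown in serum-containing medium. One was from unedited cells (WT) and the other from cells labelled GNE KO. The KO cells were made from C2C12 by electroporation of Cas9 and guide plasmids, isolation of single clones and Sanger sequencing, with an indel in exon 2 of Gne, the gene of the enzyme that starts sialic acid synthesis. With 1 library per line, none of the differences below has a replicate check or a test, and what came with the clone and what came with the Gne edit cannot be told apart.

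The values are taken as FPKM, which counts fragments for a given transcript length and a given depth, so levels of different genes can be set side by side. Gne itself had 6.67 FPKM in WT and 7.34 FPKM in KO, so its RNA level does not check which library carries the edit, a small change that need not lower the RNA. The label of a myoblast line was checked on 10 myoblast genes, whose summed level was 272 FPKM in WT and 80.6 FPKM in KO. Among the 7 of them averaging 1 FPKM or more, 4 were lower in KO by over 2-fold and 1 was higher by over 2-fold. Myod1, a defining myoblast transcription factor, was 59.97 FPKM in WT and listed at 0 in KO, while Myf5, another, was 9.14 and 20.3 FPKM. Over 7 fibroblast genes the sum was 75.7 FPKM in WT and 401 FPKM in KO, with Lum and Thy1 listed at 0 in both. Most of that difference was Col1a1, at 9.66 and 273 FPKM, and Postn, at 0.440 and 33.9 FPKM, while Pdgfra, at 10.8 and 12.3 FPKM, and Pdgfrb, at 54.5 and 80.2 FPKM, were within 2-fold. The sum over 6 neuronal genes was 107 and 1.22 FPKM, nearly all of it Stmn2 and Tubb3, with Elavl4 at 0 in both. Endothelial genes summed to 0.019 and 0.028 FPKM over 6 genes, with Cdh5, Kdr and Emcn at 0 in both, and glial genes to 0.385 and 0.454 FPKM over 5. The 5 macrophage genes summed to 3.10 and 1.58 FPKM, with Ptprc and Adgre1 at 0 in both. The part of these marker differences in the guidance gene values was not tested, and in bulk RNA fewer cells of a type and less RNA per cell cannot be told apart.

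Guidance genes were named for steering growing axons, and the same ligands and receptors also direct migrating cells and vessels. Ephrins are bound to the cell surface and meet Eph receptor tyrosine kinases on a touching cell, with signals running into both cells. Class 3 semaphorins, Slits and netrins are secreted: the first act through neuropilin and plexin complexes, Slits through Robo receptors, and netrins through Dcc, neogenin and Unc5 receptors. In muscle, EphA4 and ephrin-A5 are known from the migration of limb muscle precursors, and semaphorin 3A from satellite cells and the control of motor nerve growth.

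The promoters of 4 genes are printed because they belong to a ligand and its receptor that were both higher in the KO library, Slit2 and Robo1, and to a pair of receptors that were lower, Epha4 and Unc5c. Each is the 250 bases before a transcription start listed for the gene in the RefSeq promoter table for GRCm38.p6, 5′ to 3′ on the strand of the gene. The table held 59 of the 68 genes, and gene-level values do not show which start a cell used. Slit2 lies on the plus strand at chr5:47982905-47983154 and Robo1 on the plus strand at chr16:72662899-72663148. In GRCm39, another build, the Robo1 gene runs from 72105194 to 72844378, so its stretch may belong to a start inside the gene. The Epha4 stretch is chr1:77515089-77515338 on the minus strand, and the Unc5c stretch is chr3:141465314-141465563 on the plus strand. Capitals mark matches, on either strand, to the E-box letters CAGCTG and CAGGTG, which proteins of the MyoD family can bind, to TATAAA and to the GC-box letters GGGCGG.
Slit2: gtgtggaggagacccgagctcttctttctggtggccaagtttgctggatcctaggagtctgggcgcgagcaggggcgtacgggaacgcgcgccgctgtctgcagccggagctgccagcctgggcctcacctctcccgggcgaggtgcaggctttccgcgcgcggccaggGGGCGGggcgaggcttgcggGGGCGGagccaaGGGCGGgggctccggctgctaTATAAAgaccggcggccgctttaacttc
Robo1: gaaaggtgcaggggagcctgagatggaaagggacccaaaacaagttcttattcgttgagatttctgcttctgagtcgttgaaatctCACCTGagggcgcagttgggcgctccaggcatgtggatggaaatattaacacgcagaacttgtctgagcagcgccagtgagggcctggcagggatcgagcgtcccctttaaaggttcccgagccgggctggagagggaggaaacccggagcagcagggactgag
Epha4: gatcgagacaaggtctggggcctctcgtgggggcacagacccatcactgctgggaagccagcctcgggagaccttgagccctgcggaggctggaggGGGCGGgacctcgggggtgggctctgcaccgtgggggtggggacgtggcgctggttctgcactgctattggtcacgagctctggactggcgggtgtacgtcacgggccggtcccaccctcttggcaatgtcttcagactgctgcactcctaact
Unc5c: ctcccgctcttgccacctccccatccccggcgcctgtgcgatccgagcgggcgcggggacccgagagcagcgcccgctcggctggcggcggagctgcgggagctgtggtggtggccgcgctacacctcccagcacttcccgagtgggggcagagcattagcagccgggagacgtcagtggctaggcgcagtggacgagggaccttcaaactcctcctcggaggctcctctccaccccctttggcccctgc

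CAGCTG was in none of the 4 stretches and in 13.0% of 32851 promoters of the same length. The Robo1 stretch held 1 match to CAGGTG, read on the other strand as CACCTG, and 17.2% of all promoters hold this motif. TATAAA, which 12.4% of promoters hold, was found once, in Slit2, and there it lay downstream of 3 GGGCGG matches. Epha4 held 1 GGGCGG match, Unc5c held no match to any of the 4 motifs, and 32.7% of all promoters hold GGGCGG. The 4 stretches had between 56.0% and 71.2% G and C, against a median of 52.4% over all promoters, and between 11 and 25 CG dinucleotides, against a median of 6. These matches describe the letters only, and no binding was measured.

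Of the 68 guidance genes, 38 averaged 1 FPKM or more over the libraries and were compared by log2((KO + 1)/(WT + 1)), where the added 1 makes the differences of low genes look smaller. They were 20 of the 35 ligands and 18 of the 33 receptors. A gene counts here as higher or lower when this value is beyond 1 in either direction. Higher in the KO library were 4 guidance genes, Slit2, Sema3a, Robo1 and Nrp1, and 5 were lower, Sema3f, Unc5c, Epha4, Efnb2 and Plxnb1. Over all 10542 genes with such a mean, 2.84% were higher and 3.43% lower, 6.27% in all, and the 9 guidance genes were 23.7% of their 38. The share depends on level: 15.0% of all genes with a mean of 1 to 5 FPKM and 4.27% of those above it were past this limit, against 5 of 13 and 4 of 25 guidance genes. A gene near the limit of 1 FPKM that passed through a single library had to differ, so these shares are a description of the 2 libraries. Robo1 and Epha4 were listed at 0 in one library, and without them 3 were higher and 4 lower. Sema3f, Unc5c and Plxnb1 were also below 1 FPKM in KO, at 0.367, 0.385 and 0.818 FPKM. All 5 changed guidance genes of the lower band thus passed the filter through their higher library, and their share is no evidence about guidance genes. In the upper band Slit2, at 2.57 FPKM in WT, and Efnb2, at 4.18 FPKM in KO, reached 5 FPKM through their higher library. The share of that band is no evidence about guidance genes either.

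The guidance genes lay on both sides of 0. Their median log2 difference was 0.073, against 0.0061 for all genes. Above 0 were 22 of the 38, 57.9%, against 50.7% of all genes. Their quartiles were -0.48 and 0.47, and those of all genes -0.21 and 0.23. This is a description of the 2 libraries, with no test.

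**Figure D1:**
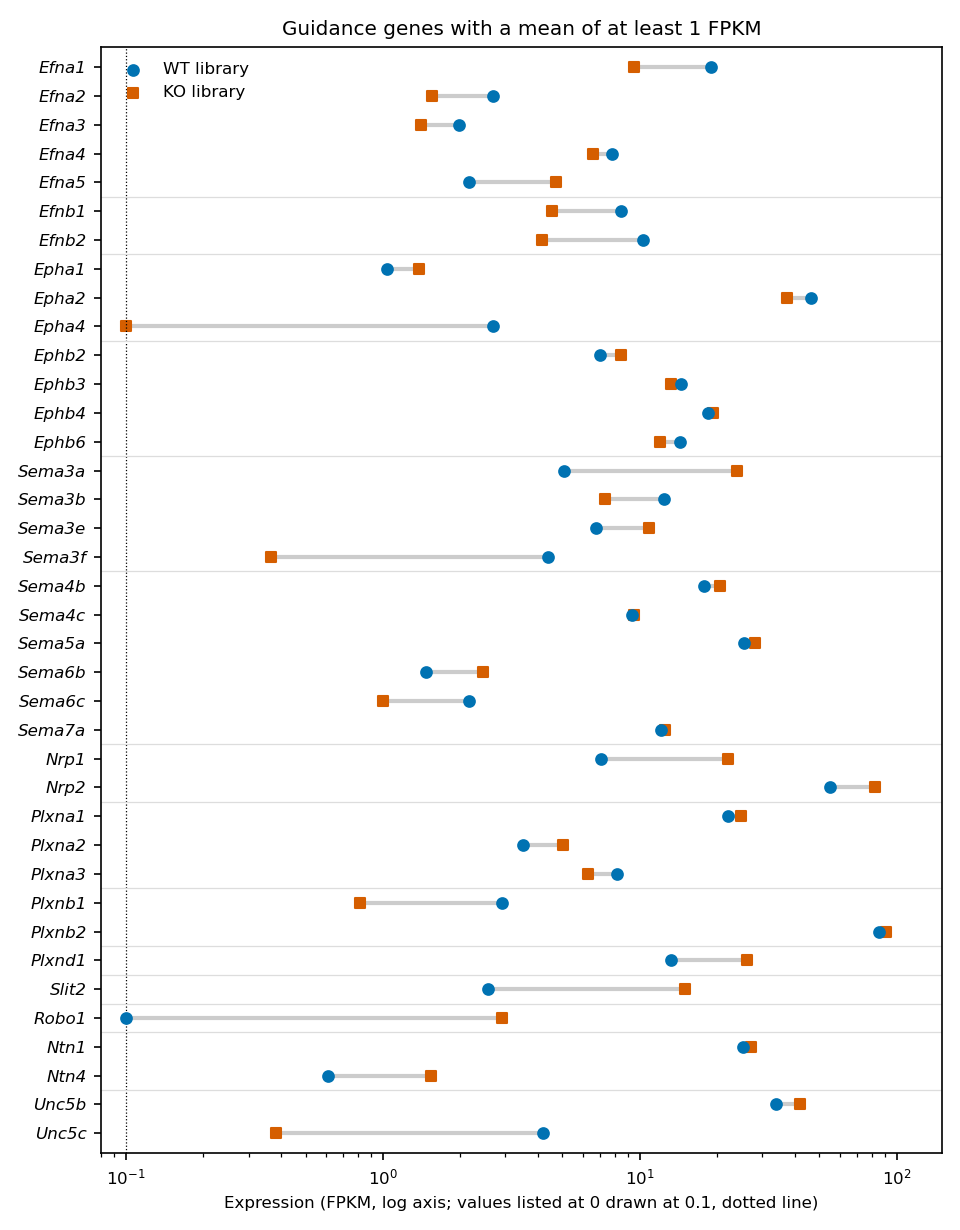
Expression (FPKM, log axis) of the 38 guidance genes averaging 1 FPKM or more, in the WT library (blue circles) and the KO library (orange squares), 1 library each, grouped by class with grey lines between classes; values listed at 0 are drawn at 0.1. Sema3a, Nrp1, Slit2 and Robo1 lie well to the right in KO and Sema3f, Unc5c and Epha4 well to the left, while Plxnb2, Ntn1, Sema5a and the EphB receptors nearly coincide.

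Of the 7 ephrins above the filter, the ligands of the Eph receptors, Efnb2 alone passed the limit, although 6 had the smaller value in the KO library. Over all 10542 genes above the filter, 5192 had the smaller value in KO. Efna1, a ligand of EphA2 held to the membrane by a lipid anchor, was 18.9 FPKM in WT and 9.48 FPKM in KO, a log2 difference of -0.93 that lies just inside the limit. Efna2 was 2.69 and 1.55 FPKM, Efna3 1.98 and 1.41 FPKM, and Efna4 7.80 and 6.59 FPKM, in each case with the lower value in KO. Efna5 went against the other ephrin-A genes, with 2.17 FPKM in WT and 4.70 FPKM in KO, 2.16 times the WT value and a log2 difference of 0.85. The share of Efna5 in the summed ephrin-A level was 6.47% in WT and 19.8% in KO.

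The ephrin-B ligands span the membrane, and of the 2 above the filter 1, Efnb2, was lower in KO. Efnb2, the partner of EphB4 in vessel formation, was 10.3 FPKM in WT and 4.18 FPKM in KO, a ratio of WT to KO of 2.46 and a log2 difference of -1.12. Efnb1 was 8.47 and 4.55 FPKM, a log2 difference of -0.77 within the limit. Summed over Efnb1, Efnb2 and Efnb3, the ephrin-B level was 19.2 FPKM in WT and 9.41 FPKM in KO, 0.49 of the WT value. Efnb3 lay below the filter at 0.467 and 0.682 FPKM. The ephrin-A sum was 33.6 and 23.7 FPKM.

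Efna1, Efna3 and Efna4 are neighbours on chromosome 3 of GRCm39, between 89179037 and 89245373. Their log2 differences, -0.93, -0.31 and -0.21, were all below 0 and within the limit. The genes within 5 Mb of them had median log2 differences between 0.041 and 0.047, near 0 and on the other side.

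Among the EphA receptors 1 gene dominated both libraries and another was seen in a single one. Epha2, which carried 92.1% of the summed EphA level in WT and 94.9% in KO, was 46.5 FPKM in WT and 37.3 FPKM in KO. Epha1 was 1.03 and 1.38 FPKM. Epha4, a receptor that binds ephrins of both the A and the B type, was 2.68 FPKM in WT and listed at 0 in KO. In these values Epha2 was therefore the main EphA gene of both lines, and Epha4 was seen in WT alone.

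The 4 EphB receptors above the filter were at like levels in both libraries, with log2 differences between -0.25 and 0.24. Ephb4 was 18.4 FPKM in WT and 19.2 FPKM in KO, and Ephb3 was 14.4 and 13.2 FPKM. Ephb6, whose kinase domain is inactive, was 14.4 and 11.95 FPKM, and Ephb2 was 7.004 and 8.48 FPKM. Their sum was 54.3 FPKM in WT and 52.8 FPKM in KO. Beside the ephrin-B sum, which was 0.49 of the WT value, the EphB sum was 0.97 of it.

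The secreted class 3 semaphorins held members far apart in both directions. Sema3a, which repels axons through neuropilin-1, was 5.07 FPKM in WT and 23.8 FPKM in KO, 4.70 times the WT value and a log2 difference of 2.03. It ranked 68 from the top among the 10542 genes. Sema3f, a ligand of neuropilin-2, was 4.38 FPKM in WT and 0.367 FPKM in KO, a ratio of WT to KO of 11.9 and a log2 difference of -1.98 at rank 89 from the bottom. Thus Sema3a had the highest and Sema3f the lowest log2 difference of the class.

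Sema3e, which binds plexin-D1 directly, was 6.77 FPKM in WT and 10.8 FPKM in KO, and Sema3b was 12.5 and 7.35 FPKM. The leading class 3 gene was Sema3b in WT, with 42.1% of the class sum, and Sema3a in KO, with 55.5%. Sema3a made up 17.1% of the WT sum and Sema3b 17.1% of the KO sum, so these ligands exchanged places. The sum itself was 29.6 FPKM in WT and 42.9 FPKM in KO. Sema3c was below the filter, at 0.758 and 0.493 FPKM.

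Several of these genes lie close together. Sema3f, lower in KO, and Sema3b, at -0.69 and within the limit, lie on chromosome 9 of GRCm39 between 107474872 and 107587674, and Plxnb1, lower too, lies on the same chromosome from 108923419. The median of the genes within 5 Mb was -0.039 around Sema3b and Sema3f and -0.086 around Plxnb1, and after its subtraction Sema3f was at -1.94. Sema3a, higher, and Sema3e, at 0.61 and within the limit, lie on chromosome 5, at 13175288 and 14075290. Around Sema3e the median was 0.81 over 3 genes with a sufficient level, and subtraction turned its value to -0.20. Sema3a is among these 3 genes, so this median is in part the value of another guidance gene. Sema3a kept 1.99 after subtraction of 0.041 over 9 genes.

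**Figure D2:**
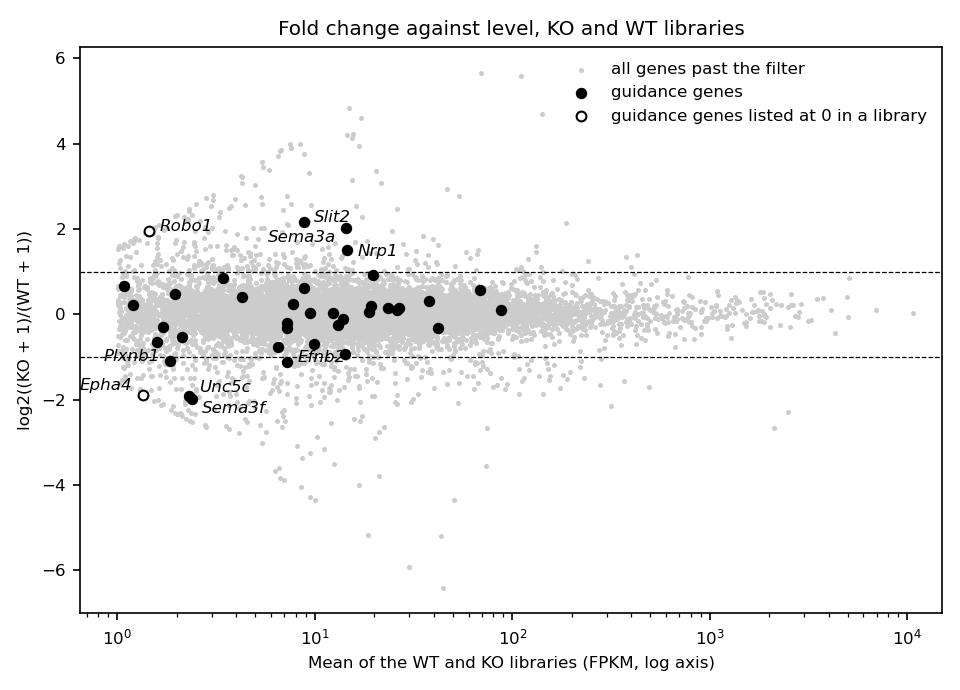
Log2 fold difference between the KO and WT libraries (pseudocount 1) against the mean level (FPKM, log axis) of the 10542 genes averaging 1 FPKM or more (grey) and the 38 guidance genes among them (black, with open circles for those listed at 0 in a library). Dashed lines mark a log2 difference of 1 in either direction. Slit2, Sema3a and Nrp1 sit above the bulk of genes of their level, Sema3f and Unc5c below it, and most other guidance genes lie between the lines.

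Of the semaphorins of classes 4 to 7, held at the membrane, the 4 most abundant were at like levels in both libraries. Sema5a was the most abundant of them, at 25.4 FPKM in WT and 28.1 FPKM in KO. Sema4b was 17.8 and 20.5 FPKM, and Sema4c, a ligand of plexin-B2, was 9.34 and 9.48 FPKM. Sema7a, which has a lipid anchor and binds integrins and plexin-C1, was 12.1 and 12.5 FPKM. These 4 genes differed by log2 values of 0.20 or less.

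Differences were larger among the low genes of these classes. Sema6c was 2.16 FPKM in WT and 1.00 FPKM in KO, and Sema6b was 1.47 and 2.45 FPKM. Sema4a, just under the filter, was 0.491 FPKM in WT and 1.43 FPKM in KO, and Sema6d was 0.800 and 0.551 FPKM. The class sum was 69.9 FPKM in WT and 76.2 FPKM in KO.

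Neuropilins, the co-receptors that bind class 3 semaphorins and some forms of VEGF, both had the larger value in the KO library, where Nrp1 passed the limit and Nrp2 did not. Nrp1 was 7.07 FPKM in WT and 22.03 FPKM in KO, 3.12 times the WT value and a log2 difference of 1.51. Nrp2, already abundant, was 54.9 FPKM in WT and 82.2 FPKM in KO, 1.498 times the WT value and a log2 difference of 0.57. Their sum was 61.9 and 104 FPKM, the largest difference in FPKM of any class. Nrp1 lies on chromosome 8, where its neighbours had a median of 0.34, and 1.18 remained after subtraction. Sema3a and its receptor Nrp1 were therefore both higher in KO, while the Nrp2 ligand Sema3f was lower and Nrp2 within the limit.

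Plexins, the signalling receptors for semaphorins, were led by Plxnb2 at 85.0 FPKM in WT and 90.6 FPKM in KO, the most abundant guidance gene of both libraries. Plxnb1, the receptor of semaphorin 4D, was 2.90 FPKM in WT and 0.818 FPKM in KO, a ratio of WT to KO of 3.54 and a log2 difference of -1.10. Plxnb2 thus made up 96.7% of the plexin-B sum in WT and 99.1% in KO. The ligand Sema4d itself was at 0.065 FPKM in WT and listed at 0 in KO.

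Plexin-A receptors pair with neuropilins for class 3 semaphorins. Plxna1 was 22.1 FPKM in WT and 24.7 FPKM in KO, Plxna2 was 3.52 and 5.03 FPKM, and Plxna3 was 8.12 and 6.29 FPKM. None of these passed the limit in either direction. Plxnd1, the receptor of semaphorin 3E, was 13.2 FPKM in WT and 26.03 FPKM in KO, 1.97 times the WT value and a log2 difference of 0.93, just inside the limit. Both Plxnd1 and its ligand Sema3e thus had the higher value in KO, each within the limit. After subtraction of neighbours Sema3e was at -0.20 and Plxnd1 at 0.91.

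Slit2 had the largest positive log2 difference of the guidance genes with a value above 0 in both libraries. This secreted ligand, which repels axons and cells through Robo receptors, was 2.57 FPKM in WT and 15.0 FPKM in KO. That is 5.85 times the WT value and a log2 difference of 2.17, rank 60 from the top of the 10542 genes. Its 17 neighbours had a median of -0.0061. Slit1 and Slit3 were listed at 0 in both libraries, so Slit2 was the single Slit gene with a value.

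The Robo receptors with a value above 0 were on the same side, at a lower level. Robo1, the main Slit2 receptor of many cells, was listed at 0 in WT and at 2.90 FPKM in KO, and no fold is given against a value of 0. Robo2, below the filter, was 0.169 FPKM in WT and 1.28 FPKM in KO. Robo3 was at 0.014 and 0.046 FPKM, and Robo4, a gene of endothelial cells, was listed at 0 in both. Robo1 and Robo2 lie next to each other on chromosome 16 of GRCm39, from 72105194 to 72844378 and from 73688727 to 75244270, a stretch with few expressed genes. Their neighbours with a sufficient level, 4 and 7 genes, had medians of -0.11 and -0.15, the opposite side from both Robo genes. Robo1 is itself among the 7 genes around Robo2. The summed Robo level was 0.183 FPKM in WT and 4.22 FPKM in KO.

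**Figure D3:**
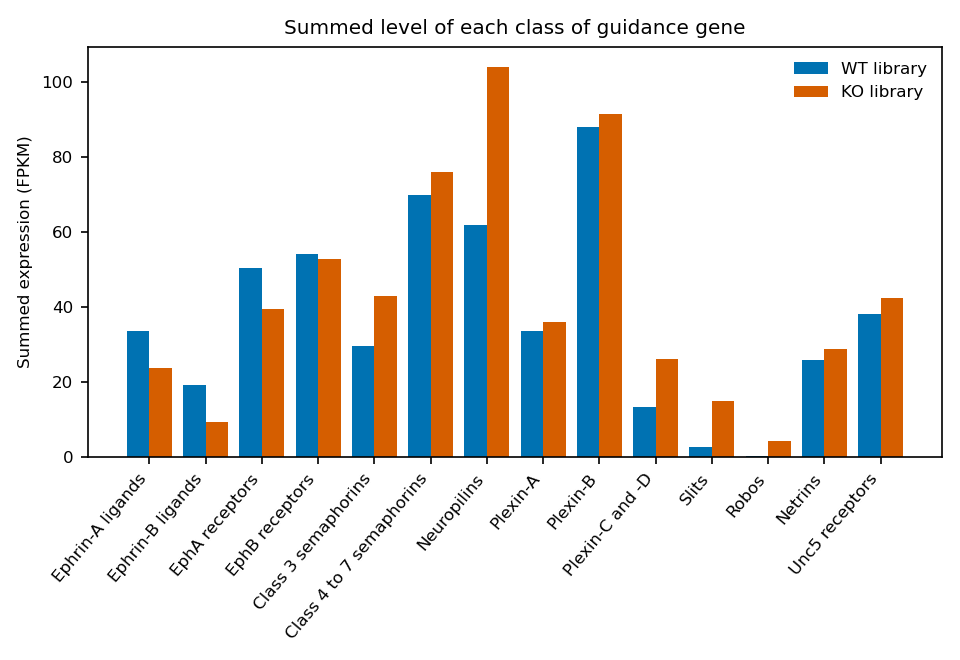
Summed expression (FPKM, axis from 0) of each class of guidance gene in the WT library (blue) and the KO library (orange), 1 library each, so that no error bars can be drawn. The neuropilin, class 3 semaphorin, plexin-C and -D, Slit and Robo sums are higher in KO, and both ephrin sums and the EphA sum are lower. A sum can rest on 1 gene and need not describe its class. Slit2 made up 100% of the Slit sum, and Plxnd1 at least 99.98% of the plexin-C and -D sum. Epha2 made up 92.1% of the EphA sum in WT and 94.9% in KO. The EphB, plexin-A, plexin-B and netrin sums nearly match.

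Netrin-1, the secreted ligand of Unc5 receptors and neogenin, was at like levels: Ntn1 was 25.2 FPKM in WT and 27.1 FPKM in KO. Ntn4, a netrin that binds laminins in basement membranes, was 0.613 and 1.55 FPKM. It is on chromosome 10, where its neighbours had a median of 0.38, against its own log2 difference of 0.66. Ntn1 made up 97.0% of the netrin sum in WT and 94.4% in KO.

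The Unc5 receptors, which turn netrin into a repellent, differed in 1 of the 2 genes above the filter. Unc5b was 33.8 FPKM in WT and 42.0 FPKM in KO, a log2 difference of 0.31 within the limit. Unc5c was 4.21 FPKM in WT and 0.385 FPKM in KO, a ratio of WT to KO of 10.9 and a log2 difference of -1.91, at rank 95 from the bottom. Around Unc5c on chromosome 3 the median of 31 neighbours was 0.18, and -2.09 remained after its subtraction. With the ligand nearly equal, Unc5b held 88.8% of the Unc5 sum in WT and 99.1% in KO.

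The remaining 30 guidance genes were below a mean of 1 FPKM. Epha3, Epha5, Epha6, Epha10, Ephb1, Slit1, Slit3 and Robo4 were listed at 0 in both libraries. Another 16 did not pass 0.251 FPKM in either library, namely Epha8, Ntn3, Ntn5, Plxna4, Plxnb3, Plxnc1, Robo3, Sema3d, Sema3g, Sema4d, Sema4f, Sema4g, Sema5b, Sema6a, Unc5a and Unc5d. The other 6 had a value above 0.5 FPKM in a library. Of these Efnb3, Sema3c, Sema4a, Sema6d and Robo2 are given above, and Epha7 was listed at 0 in WT and at 0.643 FPKM in KO. The number of reads is unknown, so the depth behind these low values, and behind the values of 0, could not be given.

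The same 6 guidance genes were the most abundant in both libraries. In WT the most abundant guidance genes were Plxnb2, Nrp2, Epha2, Unc5b, Sema5a and Ntn1, from 85.0 down to 25.2 FPKM. In KO the order was Plxnb2, Nrp2, Unc5b, Epha2, Sema5a and Ntn1, from 90.6 down to 27.1 FPKM. Of these 6, Nrp2 had the largest log2 difference, 0.57. The summed level of all 68 guidance genes was 520.5 FPKM in WT and 592.5 FPKM in KO, 1.14 times the WT value.

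The rest of the pathway, a list of 55 further receptors, ligands and signalling partners outside the symbol rule, held 41 above the filter. Of these 0 were higher and 3 lower, 7.32%, against 6.27% of all genes. Tiam1, a Rac activator that acts below Eph receptors, was 14.0 FPKM in WT and 0.022 FPKM in KO, a log2 difference of -3.87. Ngef, the exchange factor ephexin that EphA4 controls, was 31.5 and 7.60 FPKM, a log2 difference of -1.92. Adgrl1, a latrophilin, was 23.8 and 8.08 FPKM, and its log2 difference of -1.45 on chromosome 8 was close to the median of its neighbours, -1.42. Epha4 and its partner Ngef were thus both lower in KO. Of the other netrin receptors, Neo1 was 45.1 FPKM in WT and 77.6 FPKM in KO, with a neighbour median of 0.32 against its own 0.77, and Dcc did not pass 0.003 FPKM in either. Rgma, a ligand of neogenin, was 3.03 and 6.29 FPKM, while the related Rgmb was 4.41 and 4.12 FPKM.

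Which genes pass the log2 limit of 1 depends on the pseudocount. With a pseudocount of 5, Slit2, Sema3a and Nrp1 remained past the limit, at log2 differences of 1.40, 1.52 and 1.16, and Robo1 and all 5 lower genes did not. With a pseudocount of 0.1, Efna5, Ntn4 and Sema6c passed it too, at 1.08, 1.21 and -1.04.

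**Figure D4:**
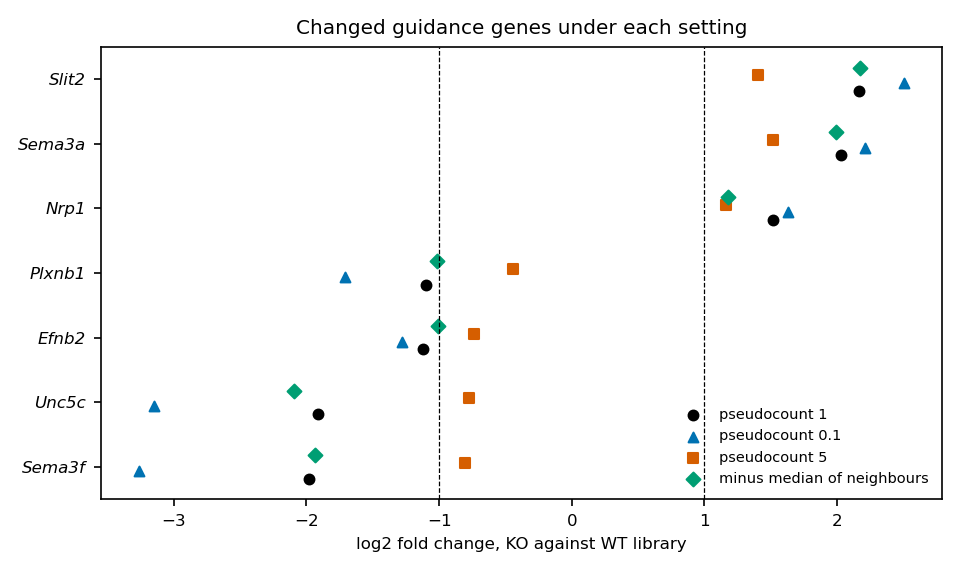
Log2 fold difference between the KO and WT libraries for the 7 guidance genes past a log2 difference of 1 with a pseudocount of 1, and with values above 0 in both. It is drawn with a pseudocount of 1 (black), 0.1 (blue) or 5 (orange), and with a pseudocount of 1 after subtraction of the median of genes within 5 Mb (green). Dashed lines mark a log2 difference of 1 in either direction. Slit2, Sema3a and Nrp1 stay beyond the line in all 4 settings, and the 4 lower genes fall inside it with a pseudocount of 5.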

How the data were processed

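RNA sequencing of 2 C2C12 libraries, 1 WT and 1 Gne KO, was used. The authors deposited 1 value per gene symbol, taken here as FPKM, since no unit is named and the sums, 568410 and 574144, differ; TPM limited to these genes would give the same ratios up to 1 factor per library. The submitters' processing notes name Trim Galore 0.6.6, STAR 2.7.9a, RSEM 1.3.3 and build GRCm38, the methods GRCm39 and another STAR version. The methods speak of expected counts and TPM from RSEM. Library kit, RNA amount and read length also differ between labels and methods. Depth is unknown, so no interval is given.

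Repeated symbols (24 of 21853) kept the row with the higher mean. The members and lists were chosen with earlier results of these data known. Every member above the filter is named, and lower ones above 0.5 FPKM also. The other pathway genes are named if past the log2 limit of 1 or, chosen after their values were seen, as partners. Positions are from GENCODE vM39 (GRCm39), matched by symbol for all 68 members. Neighbours are genes above the filter with centres within 5 Mb, other guidance genes included. Alternatives were other pseudocounts, filters, scaling and subtraction of neighbours. Python 3.11.15, numpy 2.4.6, pandas 2.3.3 and matplotlib 3.10.9 were used. Other genes of the wider pathway are not reported here.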

Additional observations from a re-analysis of the deposited data

How the results depend on the processing

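With 1 library per line no library could be left out. No paired analysis was possible because the values come from no test and each line has 1 library. The 4 higher guidance genes were between 3 and 6 under the alternatives. The 5 lower ones became 0 with a pseudocount of 5, which shrinks low values, and 1 when the filter was raised to 5 FPKM, which leaves fewer genes. For all genes the 299 higher and 362 lower became 102 and 176 with the pseudocount of 5, and 145 and 221 with the stricter filter. Among the other pathway genes 0 higher and 3 lower became 1 and 5 with a pseudocount of 0.1. The median of the guidance genes, 0.073, was 0 without a filter, which adds genes at 0, and 0.012 after subtraction of neighbouring genes. Scaling by the median of ratios moved none of the 38 guidance genes across the limit, and neither did subtraction of neighbours. After that subtraction Efnb2, at -1.008, and Plxnb1, at -1.013, were barely past the limit. For all genes subtraction of neighbours, an alternative chosen after seeing the data, gave 267 higher and 267 lower of 10170. No direction reversed among genes past the limit.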

Other observations

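Epha4 and Robo1 belong to a small group of genes listed at 0 in one library. With a limit of 2.5 FPKM, set after their values were seen, 14 genes were listed at 0 in KO and at or above it in WT, Epha4 among them, and 14 were listed at 0 in WT and at or above it in KO, Robo1 among them. With 5 FPKM these numbers were 2 and 7. Of 15 genes used by nearly every cell, such as Actb and Gapdh, 0 were listed at 0 in either library.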
